A study of Mus musculus with 12 samples.

Results

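The 30 genes described here were chosen by symbol as neutrophil genes, and all 30 were found among the 54532 genes of the table. The list holds granule proteins that neutrophils load while they mature, which are Ngp, Ltf, Camp, Mpo, Elane, Prtn3 and Ctsg. The other 23 genes are grouped here as genes of later-stage and activated neutrophils, though Pglyrp1 among them is also a granule protein. The contrast built into the list sets 5 granule-protein genes (Ngp, Ltf, Camp, Mpo and Elane) against those 23. The rule takes rows by gene name and uses no measured value, but the list of names was put together with earlier results of these data known. RNA of the whole mouse colon was sequenced with 1 library per mouse, in 4 groups of 3 libraries. Tmem173fl/fl mice, labelled WT, carry a floxed gene of STING, a sensor protein of the pathway for DNA in the cytosol. Tmem173iΔmye mice, labelled CRE, carry the same floxed gene and a tamoxifen-inducible Cre in Lyz2, a gene that macrophages, monocytes and neutrophils use, so deletion is limited to cells in which Lyz2 is active. Both genotypes were given 5 tamoxifen injections, and mice aged 6 to 8 weeks either drank water (labelled Control) or dextran sulfate sodium, a polymer that injures the colon epithelium, at 2.5 to 3% for 7 days and then water for 1 day (labelled DSS). The colitic Tmem173iΔmye mice carry the numbers 1, 2 and 5. Whole colon holds epithelium, muscle, vessels and blood besides leukocytes, so fewer neutrophils and less RNA per neutrophil cannot be told apart.

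Neutrophils are made in the bone marrow and fill their granules in a fixed order. Azurophil granules come first and hold myeloperoxidase (Mpo) and the serine proteases neutrophil elastase (Elane), proteinase 3 (Prtn3) and cathepsin G (Ctsg). Specific granules follow and hold lactoferrin (Ltf), the cathelicidin precursor (Camp) and neutrophilic granule protein (Ngp), and transcription of all these genes declines before the cell enters the blood. Circulating neutrophils carry integrins, chemoattractant receptors and lectin receptors, and in the inflamed colon they cross the epithelium in large numbers.

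Depth ran from 13823237 to 18718915 counts per library. Values per gene are in CPM, after edgeR's TMM scaling of all 12 libraries, and levels of different genes are compared only in FPKM, which also divides by gene length. A group of 3 libraries stood apart by sex-linked genes. They were the libraries numbered 3 without DSS, in each genotype, and number 5 of the colitic Tmem173iΔmye mice, and had Xist from 1225 to 1839 CPM and no count of 4 Y-linked genes, whereas the other 9 libraries had Xist below 1 CPM. Colitic Tmem173iΔmye replicate 5 was also apart on the second principal component of all genes, at -114 against -26.5 to 31.6 for the others. On the first component, which held 39.0% of the variance, it lay at -32, nearer the untreated libraries (-73.0 to -47.6) than the colitic Tmem173fl/fl libraries (96.7 to 120). Tmem173 itself was at 42.4, 44.0 and 37.7 CPM in colitic Tmem173fl/fl and 47.8, 23.8 and 31.1 CPM in colitic Tmem173iΔmye libraries, so the groups overlapped and counts per gene did not show the deletion.

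Sequence just upstream of the transcription start is shown for genes on which the results turn. C/EBP factors and PU.1 are regulators of granule and myeloid genes, and their binding words were searched on both strands in the 250 bases before the start of the RefSeq promoters (GRCm38.p6), where 27 of the 30 genes matched. Trem3, Itgb2 and Hcar2 had no entry. The C/EBP word TTGCNNAA (TTNNGCAA on the other strand) was in 4 of the 27, against 9.56% of 32851 promoters, and those were Ngp, Ltf, Retnlg and Clec4e. The PU.1 word GAGGAAG, read on the other strand as CTTCCTC, was in 8 of the 27, against 10.6% of all promoters, and these were the 4 azurophil genes Mpo, Elane, Prtn3 and Ctsg together with Pglyrp1, Itgam, Fcgr4 and Clec4d. The last 150 bases before the start are given 5′ to 3′ on the gene's own strand for the 3 specific granule genes, for an azurophil gene and for a later-stage gene, with matches in capitals. Camp had neither word in its window.
Ngp, chr9:110419658-110419807, plus strand: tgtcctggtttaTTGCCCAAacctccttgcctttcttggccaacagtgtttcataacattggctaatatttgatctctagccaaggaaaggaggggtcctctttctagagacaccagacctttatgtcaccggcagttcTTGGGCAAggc
Ltf, chr9:111019142-111019291, plus strand: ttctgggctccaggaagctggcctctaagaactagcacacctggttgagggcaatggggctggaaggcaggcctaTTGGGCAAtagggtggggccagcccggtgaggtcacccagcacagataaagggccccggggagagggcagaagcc
Camp, chr9:109849457-109849606, minus strand: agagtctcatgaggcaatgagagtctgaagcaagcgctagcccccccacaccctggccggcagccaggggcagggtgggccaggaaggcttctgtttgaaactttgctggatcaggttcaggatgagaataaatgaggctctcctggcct
Prtn3, chr10:79879517-79879666, plus strand: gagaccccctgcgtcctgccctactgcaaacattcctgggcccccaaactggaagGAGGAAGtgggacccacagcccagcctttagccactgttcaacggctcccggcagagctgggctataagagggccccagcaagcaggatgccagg
Itgam, chr7:128062490-128062639, plus strand: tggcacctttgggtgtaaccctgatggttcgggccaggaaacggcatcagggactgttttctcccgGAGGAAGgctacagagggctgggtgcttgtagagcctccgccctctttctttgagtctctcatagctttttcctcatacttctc

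Ngp carried the C/EBP word at 138 and at 11 bases before its RefSeq start and Ltf at 75 bases. The RefSeq starts of Ngp, Ltf, Camp and Prtn3 lie inside the gene as the annotation of the counts has it, so the end of each stretch, and for Camp and Prtn3 all of it, falls within that gene, including the Ngp word at 11 bases. For Itgam both starts are the same. A match is a description of the letters and was not tested as a binding site.

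Colitis raised most neutrophil genes in mice with intact STING. A gene was called at an adjusted p under 0.05 in edgeR's quasi-likelihood test, adjusted over all 24102 genes tested, with a log2 fold change of at least 1 in size. Of the 30 genes, 28 passed the filter on low values (Mpo and Ctsg did not), 18 of them with an FPKM of at least 0.1 in all 12 libraries, while Elane, Camp and Prok2 passed only with the help of the colitic Tmem173fl/fl libraries. With DSS in Tmem173fl/fl mice 23 of the 28 rose and 2 fell, where 14.9% of all genes tested rose and 7.61% fell. In 25 of the 28 the groups did not overlap and colitic libraries were higher, against 23.9% of all genes tested, and in 3 they were lower, against 25.4%. The median log2 fold change was 3.99 over the 28 genes (3.92 with groups at 0 set at a floor of 3 counts) and 0.03 over all genes tested. In Tmem173iΔmye mice 10 rose and 1 fell, where 1.48% and 0.597% of all genes did, and the median was 2.28 (2.21 at the floor). That sum of 11 became 3, 3 or 2 without untreated Tmem173iΔmye replicate 1, 2 or 3, and 5, 6 or 16 without colitic replicate 1, 2 or 5. The share of all genes called in either direction was 2.08% with all libraries, and in these fits 0.299%, 0.212% and 0.236%, then 0.987%, 1.54% and 6.09%. Between untreated genotypes edgeR called 0 of the 28 and 0% of all genes, DESeq2 and limma called 0 of the 27 that they tested, and 1 of the 28, Ptafr, had an unadjusted p under 0.05, as did 720 genes or 2.99% of all tested.

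**Figure D1:**
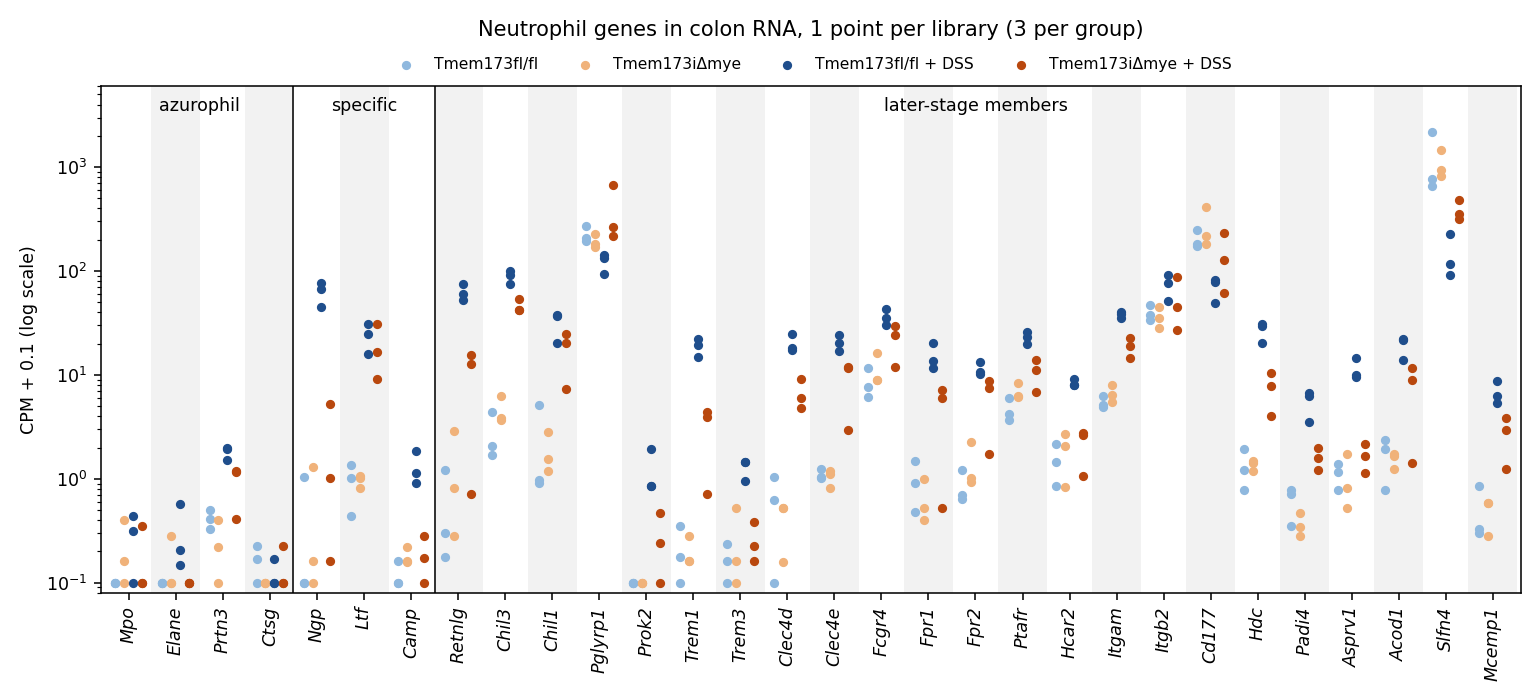
Level of each of the 30 genes, with CPM plus 0.1 on a log axis and 1 point per library, in the 4 groups of 3 libraries. Most genes sit lowest without DSS and highest in colitic Tmem173fl/fl mice, while Pglyrp1, Cd177 and Slfn4 are already above 100 CPM in every untreated library.

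Between colitic genotypes 9 of the 28 genes fell in Tmem173iΔmye mice and 0 rose, where 1.99% of all genes fell and 0.822% rose. Pglyrp1, Slfn4 and Cd177 were higher at an unadjusted p under 0.05, which 20.2% of all genes reached in either direction, and Pglyrp1 and Slfn4 were called higher by DESeq2. The 9 were Ngp and Camp among the granule genes, and Trem1, Clec4d, Hcar2, Itgam, Hdc, Padi4 and Asprv1 among the later-stage genes. In 22 of the 28 every colitic Tmem173iΔmye library was below every colitic Tmem173fl/fl library, a separation found for 14.8% of all genes tested. In 2, Pglyrp1 and Slfn4, the separation ran the other way, as it did for 12% of all genes tested. The count of 9 changed with the libraries used, and so did the share of all genes called in either direction, 2.81% with all 6 libraries. Leaving out 1 colitic Tmem173fl/fl library gave 0 (without replicate 1), 2 (replicate 2) or 1 (replicate 3), where 0.112%, 0.846% and 0.51% of all genes tested were called. Leaving out 1 colitic Tmem173iΔmye library gave 8 (replicate 1), 2 (replicate 2) or 9 (replicate 5), where 6.61%, 0.191% and 2.11% were. Without colitic Tmem173fl/fl replicate 1 the log2 difference of Ngp was -4.79 (-4.96 with all libraries), that of Trem1 -2.53 (-2.68) and that of Hcar2 -2.04 (-2.03). Over these 6 fits Asprv1 was called in 5, Ngp in 3, Clec4d, Hcar2 and Hdc in 2 each, Camp, Trem1 and Itgam in 1 each and Padi4 in 0, all with the sign kept.

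**Figure D2:**
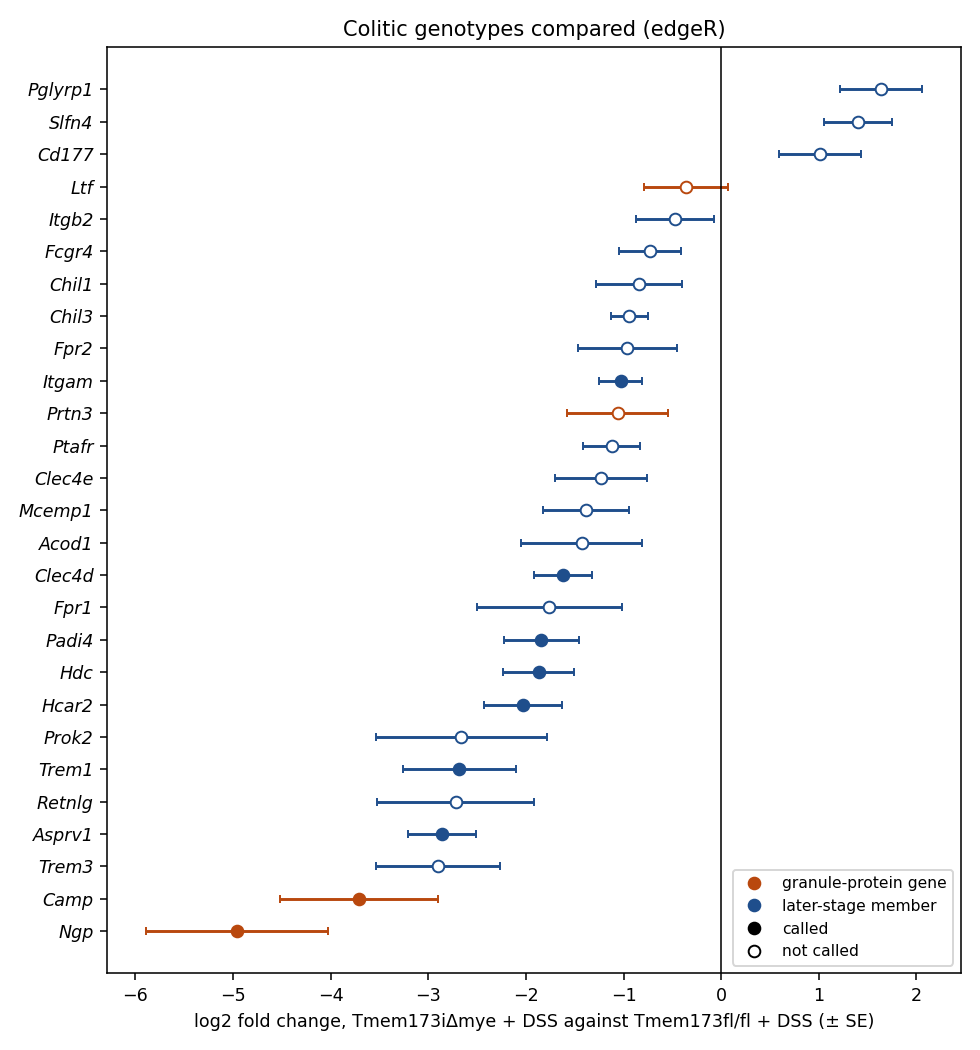
Log2 fold change with its standard error (SE) for colitic Tmem173iΔmye against colitic Tmem173fl/fl mice (n = 3 each), for 27 genes tested and counted in both groups. Filled points mark the 9 genes called by edgeR, all lower, and Pglyrp1, Slfn4 and Cd177 are the 3 genes right of 0.

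Of the azurophil genes, Mpo, Elane and Ctsg had at most 7 counts in any library. Mpo had 4, 0 and 5 counts in the colitic Tmem173fl/fl libraries and 0, 4 and 0 in the colitic Tmem173iΔmye libraries. Elane had 2, 1 and 7 counts and then 0 in each, and Ctsg had at most 2 counts in any library. Untreated libraries had no count of Mpo and Elane except in Tmem173iΔmye mice, where replicate 2 had 5 and 3 and replicate 3 had 1 of Mpo. Against a floor of 3 counts over the group at 0, Elane was 2.70-fold higher with DSS in Tmem173fl/fl mice. By the same floor it was 2.86-fold lower in colitic Tmem173iΔmye mice. These folds take the counts seen as exact and leave out the spread between mice. Neither difference of Elane was called (edgeR adjusted p 0.0806 and 0.217).

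Prtn3 was the only azurophil gene with counts in most libraries. It was at 1.41, 1.89 and 1.84 CPM in colitic Tmem173fl/fl and 1.07, 0.311 and 1.09 CPM in colitic Tmem173iΔmye mice, against 0 to 0.406 CPM without DSS. All colitic libraries but Tmem173iΔmye replicate 2 were above every untreated one. The rise with DSS in Tmem173fl/fl mice was 2.47 on the log2 scale (SE 0.44, edgeR adjusted p 0.00175), and the genotype difference of -1.06 was not called (SE 0.52, edgeR adjusted p 0.295). Prtn3 shares its place with Plppr3 on the opposite strand, which had 158 to 365 counts per library against 0 to 40 for Prtn3, and since use of strand was not stated its counts are uncertain.

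Ngp (ENSMUSG00000032484, GRCm38 chromosome 9, 110419747 to 110423012), a cystatin-like protein of specific granules, showed the largest fall among the 9 of the 30 genes called between colitic genotypes. It was at 76.1, 45.4 and 67.3 CPM in colitic Tmem173fl/fl and at 0.927, 5.10 and 0.0607 CPM in colitic Tmem173iΔmye mice. Without DSS it was at 0, 0 and 0.939 CPM in Tmem173fl/fl and 0.0607, 1.198 and 0 CPM in Tmem173iΔmye mice. Every colitic Tmem173fl/fl library was thus far above all others, and of the colitic Tmem173iΔmye libraries replicate 2 alone was above every untreated one. Its log2 fold change between colitic genotypes was -4.96 (SE 0.93, edgeR adjusted p 0.0317), and the Tmem173iΔmye mean was 3.23% of the Tmem173fl/fl mean. That mean rests on replicate 2, and the log2 fold change was -7.03 without it and from -5.14 to -4.38 when any other library was left out. With DSS it rose by 7.58 in Tmem173fl/fl mice (SE 0.67, edgeR adjusted p 2.38e-05), while the change of 2.25 in Tmem173iΔmye mice was not called (SE 1.34, edgeR adjusted p 0.469).

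Camp (ENSMUSG00000038357, chromosome 9, 109847379 to 109849617), the precursor of a cathelicidin peptide that kills bacteria, followed Ngp at a far lower level. It was at 1.73, 1.04 and 0.817 CPM in colitic Tmem173fl/fl and 0.0713, 0 and 0.182 CPM in colitic Tmem173iΔmye mice, from 66 and 4 counts in all. The colitic Tmem173iΔmye libraries lay among the untreated ones or just above, which had at most 0.121 CPM. The genotype difference was -3.71 (SE 0.81, edgeR adjusted p 0.0496), just inside the threshold. It was -4.9 without colitic Tmem173iΔmye replicate 5 and from -3.9 to -3.14 when any other library was left out. With 1 count in the untreated Tmem173fl/fl group, the ratio to colitic Tmem173fl/fl mice was 53.4 with a 95% counting interval of 9.27 to 2142.

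Ltf (ENSMUSG00000032496, chromosome 9, 111019271 to 111042767), the iron-binding protein lactoferrin, is stored in the same granules and did not follow them between genotypes. It was at 24.8, 15.8 and 31.1 CPM in colitic Tmem173fl/fl and 16.5, 9.08 and 30.5 CPM in colitic Tmem173iΔmye mice, so the groups overlapped. Replicate 5 had the highest Ltf of its group, at 30.5 CPM, and the lowest Ngp of the colitic libraries, at 0.0607 CPM. Retnlg was at 0.607 CPM in that library. Ltf there did not go with these neutrophil genes, and which cells its reads came from was not tested. The difference was -0.36 (SE 0.43, edgeR adjusted p 0.687). Ltf rose with DSS in both genotypes, by 4.88 in Tmem173fl/fl mice (SE 0.42, edgeR adjusted p 2e-05) and 4.42 in Tmem173iΔmye mice (SE 0.48, edgeR adjusted p 0.00212), from 0.339 to 1.25 CPM without DSS. Of the granule genes it was the single one called for DSS in Tmem173iΔmye mice.

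**Figure D3:**
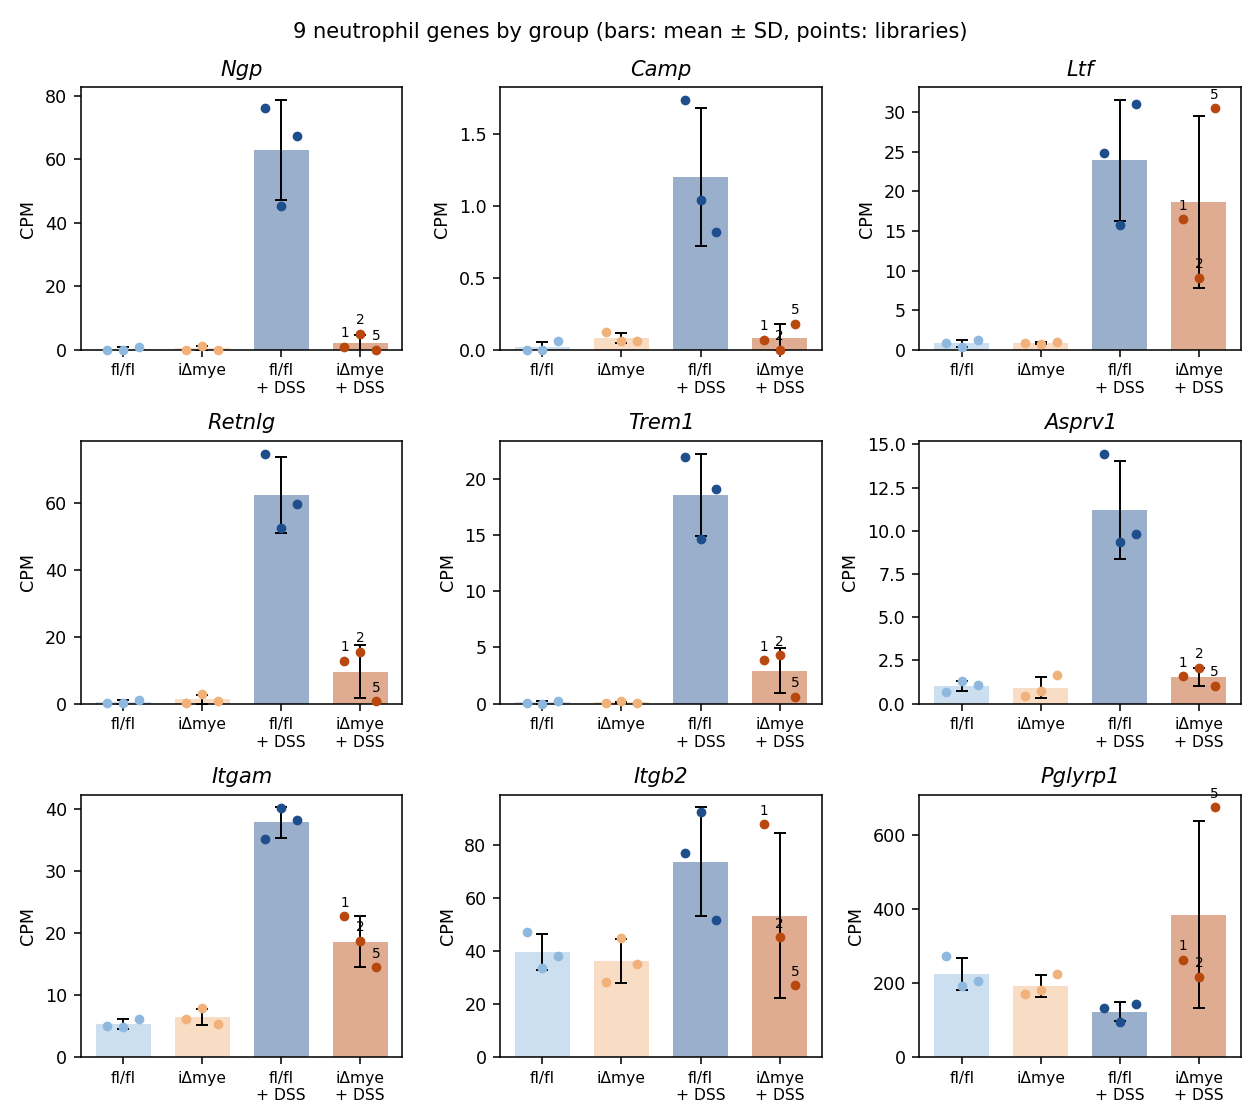
CPM of 9 neutrophil genes in the 4 groups (bars, mean and SD of 3 libraries, points, libraries, with replicate numbers on the colitic Tmem173iΔmye group). Ngp at 45.4 CPM or more stands only in colitic Tmem173fl/fl mice, Ltf overlaps between colitic genotypes, and Pglyrp1 reaches 674 CPM in colitic Tmem173iΔmye replicate 5.

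Among the secreted proteins of later-stage neutrophils, 4 of 5 rose with DSS in Tmem173fl/fl mice, 2 of 5 rose in Tmem173iΔmye mice and 0 of 5 were called by edgeR between colitic genotypes, where Retnlg, Chil3 and Prok2 were lower and Pglyrp1 higher at an unadjusted p under 0.05. The shares of all genes tested were 14.9% and 1.48% for the rises and 20.2% for an unadjusted p under 0.05 in either direction. Retnlg, a resistin-like protein of neutrophils, was at 74.8, 52.5 and 59.7 CPM in colitic Tmem173fl/fl and 12.7, 15.4 and 0.607 CPM in colitic Tmem173iΔmye mice. The groups did not overlap, and replicate 5 lay within the untreated range of 0.0757 to 2.76 CPM. Its genotype difference of -2.72 was not called (SE 0.8, edgeR adjusted p 0.106). Without replicate 5, the library of the Xist pattern in this comparison, it was -2.16 and called. Retnlg was the most abundant of the 30 genes in colitic Tmem173fl/fl mice by level per length, at 106 FPKM, ahead of Pglyrp1 at 67.6, Chil3 at 54.7 and Ngp at 52.1 FPKM. In colitic Tmem173iΔmye mice Ngp stood at 1.64 and Retnlg at 15.97 FPKM.

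Chil3, a chitinase-like lectin that monocytes and alternatively activated macrophages also make, was at 90.6, 99.1 and 75.2 CPM in colitic Tmem173fl/fl and 42.4, 42 and 54.1 CPM in colitic Tmem173iΔmye mice. All colitic libraries were above every untreated one, which had at most 6.19 CPM. Its genotype difference was -0.94 (SE 0.19, edgeR adjusted p 0.0371), past the p but under the fold required. Chil1, a related lectin that epithelium can also make, rose with DSS in both genotypes, by 3.90 where STING was intact and 3.31 in Tmem173iΔmye mice (edgeR adjusted p 0.000737 and 0.0126), and its colitic groups overlapped. Prok2, a small chemotactic protein, had no count in any untreated library. It was at 1.84, 0.758 and 0.749 CPM in colitic Tmem173fl/fl mice, 16.5-fold higher than a floor of 3 counts over the untreated group. In colitic Tmem173iΔmye mice it was at 0.143, 0.373 and 0 CPM, 2.85-fold higher than that floor, and was not called (edgeR adjusted p 0.317).

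Pglyrp1, a peptidoglycan-binding protein of neutrophil granules that gut epithelium can also make, had another pattern. It was at 274, 193 and 206 CPM in untreated Tmem173fl/fl mice, 132, 94.4 and 142 CPM in colitic ones, and 263, 216 and 674 CPM in colitic Tmem173iΔmye mice. All 3 colitic Tmem173fl/fl libraries were below every other library. The difference between colitic genotypes was 1.64 (SE 0.42, edgeR adjusted p 0.0778), and DSS changed it in Tmem173fl/fl mice by -0.8, past the p but under the fold required (SE 0.2, edgeR adjusted p 0.00978). With replicate 5 left out of that group, the genotype difference was 0.96.

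Each of the 5 innate receptors rose with DSS in Tmem173fl/fl mice, 3 of them rose in Tmem173iΔmye mice, and in all 5 the colitic Tmem173iΔmye libraries were below the colitic Tmem173fl/fl ones. Of all genes tested 14.9% and 1.48% rose and 14.8% were separated in this way. Trem1, which amplifies signals of other innate receptors on neutrophils and monocytes, was at 21.9, 14.7 and 19.1 CPM in colitic Tmem173fl/fl and 3.85, 4.29 and 0.607 CPM in colitic Tmem173iΔmye mice, against at most 0.251 CPM without DSS. Its genotype difference was -2.68 (SE 0.58, edgeR adjusted p 0.0475). DSS raised it by 7.33 in Tmem173fl/fl mice (SE 0.5, edgeR adjusted p 5e-06) and by 4.75 in Tmem173iΔmye mice (SE 0.86, edgeR adjusted p 0.0223).

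Its neighbour Trem3 was at 1.35, 0.852 and 1.36 CPM in colitic Tmem173fl/fl and 0.285, 0.124 and 0.0607 CPM in colitic Tmem173iΔmye mice, the latter within the untreated range of 0 to 0.419 CPM. Its difference of -2.9 lay just outside the threshold (SE 0.64, edgeR adjusted p 0.0501). Clec4d, a C-type lectin receptor for fungal and mycobacterial glycolipids, was at 17.9, 24.7 and 17.2 CPM and then 5.92, 8.96 and 4.67 CPM, a difference of -1.62 (SE 0.3, edgeR adjusted p 0.0314). Clec4e, its partner lectin (-1.23), and Fcgr4, a receptor for antibody constant regions (-0.73), were not called (edgeR adjusted p 0.189 and 0.251).

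The 4 receptors for chemoattractants and metabolites all rose in Tmem173fl/fl mice given DSS, by 2.4 to 4.17 on the log2 scale, and 0 of them were called in Tmem173iΔmye mice, where 14.9% and 1.48% of all genes tested rose. That 0 is at the adjusted threshold, and 2 of the 4 had an unadjusted p under 0.05, as did 15.6% of all genes tested. Hcar2, a receptor for niacin and butyrate, was at 7.91, 9.09 and 7.899 CPM in colitic Tmem173fl/fl and 2.64, 2.55 and 0.971 CPM in colitic Tmem173iΔmye mice. The latter lay within or just above the untreated range of 0.728 to 2.58 CPM, and the genotype difference was -2.03 (SE 0.4, edgeR adjusted p 0.03503).

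Ptafr, the receptor for platelet-activating factor, was at 22.8, 25.99 and 19.7 CPM in colitic Tmem173fl/fl and 13.9, 11.01 and 6.74 CPM in colitic Tmem173iΔmye mice, against 3.59 to 8.296 CPM without DSS. The colitic groups did not overlap, and the difference of -1.12 was not called (SE 0.29, edgeR adjusted p 0.0813). Fpr1 and Fpr2, the formyl peptide receptors by which neutrophils follow bacterial products, differed by -1.76 and -0.96 (edgeR adjusted p 0.228 and 0.339). In colitic Tmem173iΔmye replicate 5 Fpr1 was at 0.425 CPM, within the untreated range, while replicates 1 and 2 were at 7.13 and 5.91 CPM.

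Itgam and Itgb2 encode the 2 chains of the integrin Mac-1, which neutrophils, monocytes and macrophages use to adhere. Itgam (ENSMUSG00000030786, chromosome 7, 128062640 to 128118491) was at 35.3, 40.2 and 38.2 CPM in colitic Tmem173fl/fl and 22.7, 18.7 and 14.5 CPM in colitic Tmem173iΔmye mice, and 4.81 to 7.91 CPM without DSS, so the 3 levels did not overlap. The difference between colitic genotypes was -1.03, close to the fold required (SE 0.22, edgeR adjusted p 0.0438). Without colitic Tmem173iΔmye replicate 5, the library of the Xist pattern in this comparison, it was -0.88 and not called. Itgb2, whose chain also pairs with lymphocyte integrins, was at 77.04, 92.4 and 51.9 CPM and then 87.7, 45.2 and 27.1 CPM, and these overlapped. Its difference was -0.47 (SE 0.4, edgeR adjusted p 0.553). Cd177, a surface protein of neutrophils, fell with DSS where STING was intact, with a log2 fold change of -1.47 (SE 0.22, edgeR adjusted p 0.000565), from 175, 247 and 180 CPM to 77.6, 48.6 and 81.6 CPM. In colitic Tmem173iΔmye mice Cd177 was at 61.4, 128 and 231 CPM, which overlapped both. Untreated Tmem173iΔmye libraries had 417, 181 and 217 CPM of it. Without DSS Ngp was at most 1.198 CPM and Trem1 at most 0.251 CPM. Cd177 levels thus did not go with theirs, and which cells its reads came from was not tested.

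Of 6 enzymes and other intracellular or membrane proteins, 5 rose and 1 fell with DSS in Tmem173fl/fl mice, and 3 fell between colitic genotypes, where 14.9%, 7.61% and 1.99% of all genes tested did. Asprv1, a retroviral-like aspartic protease best known from skin, had the smallest adjusted p of the 28 in the genotype comparison. It was at 14.5, 9.37 and 9.81 CPM in colitic Tmem173fl/fl and 1.57, 2.05 and 1.03 CPM in colitic Tmem173iΔmye mice, against 0.425 to 1.62 CPM without DSS. The difference was -2.86 (SE 0.35, edgeR adjusted p 0.0126), and it held in 5 of the 6 fits that left out 1 library.

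Hdc, which makes histamine from histidine and is also active in mast cells, was at 29.2, 20.3 and 30.8 CPM and then 10.4, 7.72 and 3.89 CPM, a difference of -1.87 (SE 0.36, edgeR adjusted p 0.0346). Of 9 mast cell genes edgeR called 0 in that comparison and 2 had an unadjusted p under 0.05, as did 20.2% of all genes tested, Cpa3 at -1.24 and Tpsb2 at -1.57, both lower (edgeR adjusted p 0.229 and 0.179). The summed level of the mast cell genes ran from 132 to 139 CPM in colitic Tmem173fl/fl and 57.6 to 123 CPM in colitic Tmem173iΔmye mice, mostly from Kit, at means of 110 and 73.8 CPM. Padi4, the enzyme that citrullinates histones when neutrophils release chromatin traps, was at 6.56, 3.41 and 6.13 CPM and then 1.497, 1.12 and 1.88 CPM, a difference of -1.84 (SE 0.38, edgeR adjusted p 0.0438). Both genes rose with DSS in Tmem173iΔmye mice too, by 2.52 and 2.48 (edgeR adjusted p 0.0171 and 0.0493).

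Acod1, which makes itaconate in activated myeloid cells, and Mcemp1, a membrane protein of myeloid and mast cells, differed by -1.43 and -1.38 between colitic genotypes and were not called (edgeR adjusted p 0.241 and 0.1296). Slfn4, an interferon-inducible gene of the Schlafen family, was the most abundant of the 30 genes without DSS, at 294 FPKM in Tmem173fl/fl and 263 FPKM in Tmem173iΔmye mice. It was at 2161, 776 and 661 CPM in untreated and 90.4, 228 and 117 CPM in colitic Tmem173fl/fl mice. In Tmem173iΔmye mice it was at 929, 1446 and 826 CPM without and 357, 487 and 316 CPM with DSS. Which cells the Slfn4 reads came from was not tested. Slfn4 fell with DSS in both genotypes, with log2 fold changes of -2.97 (SE 0.49, edgeR adjusted p 0.00113) and -1.47 (SE 0.27, edgeR adjusted p 0.02297), and its difference of 1.4 between colitic genotypes was not called (SE 0.35, edgeR adjusted p 0.0723).

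**Figure D4:**
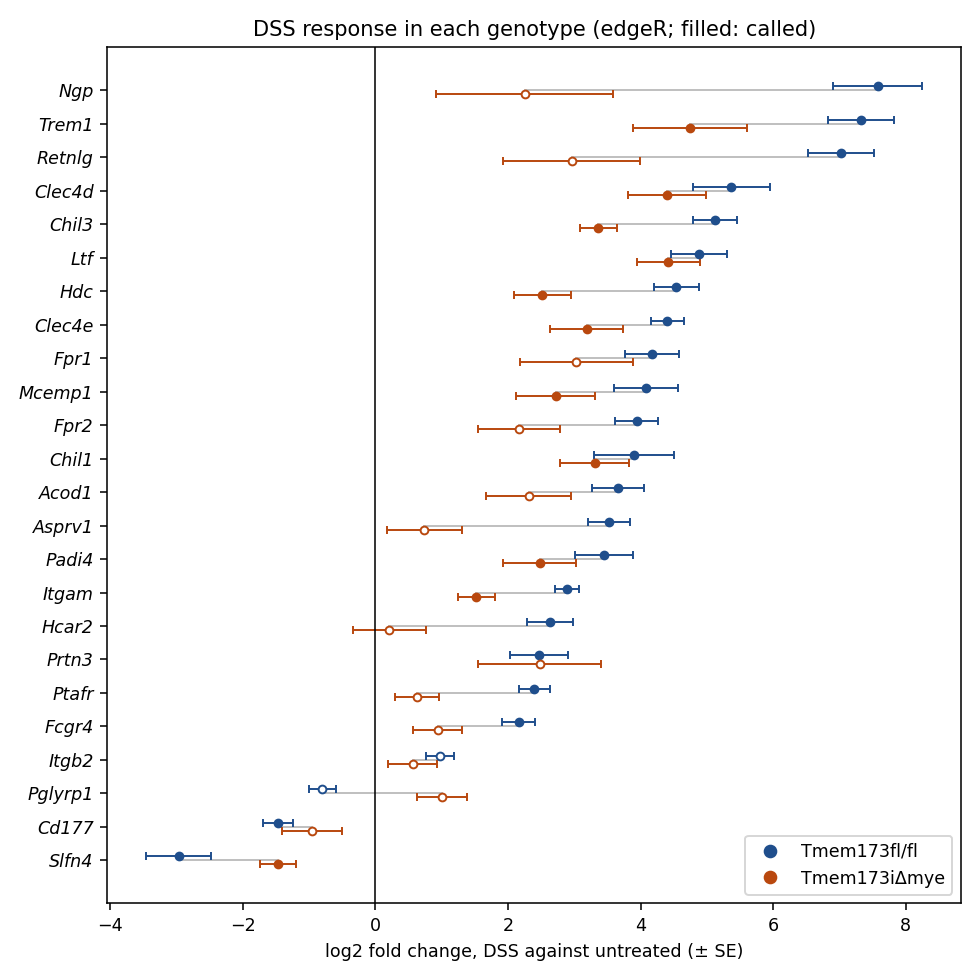
Log2 fold change with DSS and its SE in Tmem173fl/fl and Tmem173iΔmye mice (n = 3 each group) for 24 genes counted above the floor in both comparisons, with filled points for those called by edgeR. In Tmem173fl/fl and then Tmem173iΔmye mice, Ltf is at 4.88 and 4.42, Prtn3 at 2.47 and 2.48 (the latter not called, SE 0.93) and Ngp at 7.58 and 2.25. Slfn4 and Cd177 are below 0 in both.

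The granule-protein genes of the contrast were set beside the later-stage genes. Between colitic genotypes 2 of the 5 granule-protein genes fell (Ngp and Camp), 2 were not called (Ltf and Elane) and Mpo was not tested, where 1.99% of all genes tested fell. Elane and Camp passed the filter only with the help of the colitic Tmem173fl/fl libraries, in which they are highest, and rest on 10 against 0 and 66 against 4 counts, so no median is given for these genes. Of the 23 later-stage genes 7 fell, against the same 1.99%, over a range of -2.9 to 1.64. Ngp was at -4.96, from 13, 82 and 1 counts in the colitic Tmem173iΔmye libraries, and Ltf at -0.36. With DSS in Tmem173iΔmye mice 1 of the 4 granule-protein genes tested, Ltf, rose and 9 of the 23 later-stage genes rose, where 1.48% of all genes did. The difference between these shares was not tested. The 10 rises behind them became 2 or 3 without any 1 of the untreated Tmem173iΔmye libraries. In those fits the share of all genes called in either direction fell from 2.08% to between 0.212% and 0.299%.

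Whether the response to DSS itself differed between genotypes was tested with an interaction term over all 12 libraries. It was lower in Tmem173iΔmye mice for 3 of the 28 genes and higher for 0, where 1.61% and 0.934% of all genes were. The 3 were Itgam at -1.31 (SE 0.3, edgeR adjusted p 0.0385), Ptafr at -1.7 (SE 0.4, edgeR adjusted p 0.0397) and Asprv1 at -2.71 (SE 0.64, edgeR adjusted p 0.0396). At an unadjusted p under 0.05, reached by 18.1% of all genes in either direction, the interaction was lower for 13 of the 28 and higher for 2, Pglyrp1 and Slfn4. Fits that left out 1 library called from 0 to 7 of the 28. The count was 7 without colitic Tmem173iΔmye replicate 1 and 2 without its replicate 2. It was 0 without replicate 2 of either untreated group or colitic Tmem173fl/fl replicate 1 or 2. It was 1 without replicate 1 or 3 of either untreated group, colitic Tmem173fl/fl replicate 3 or colitic Tmem173iΔmye replicate 5. The share of all genes called in each of these fits is not given, so the swing is not read as particular to these genes. Ngp had a larger interaction of -5.27 with a wide error (SE 1.84, edgeR adjusted p 0.151), as had Camp at -5.24 (SE 1.54, edgeR adjusted p 0.0877). For Ltf it was -0.4 (SE 0.68, edgeR adjusted p 0.804).

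Other neutrophil genes and the signals that bring neutrophils to tissue were read from separate lists. Of 22 other neutrophil genes tested 12 fell between colitic genotypes (median -2.36) and 19 rose with DSS in Tmem173fl/fl mice, where 1.99% and 14.9% of all genes tested did. S100a8, a calprotectin chain that neutrophils hold in great amounts, was at 104, 85.9 and 104 CPM in colitic Tmem173fl/fl and 12.4, 26.1 and 5.46 CPM in colitic Tmem173iΔmye mice, a difference of -2.75 (SE 0.47, edgeR adjusted p 0.0264). Ly6g, a defining marker of mouse neutrophils, differed by 0.27 and was not called (edgeR adjusted p 0.741). It was already at 35.1 to 101 CPM without DSS. Among colitic libraries Ly6g was highest in Tmem173iΔmye replicate 5, at 239 CPM, where S100a8 was at 5.46 CPM. Its level thus did not go with that of S100a8, and which cells its reads came from was not tested. Of 19 genes of neutrophil production and recruitment tested, 15 rose with DSS in Tmem173fl/fl mice, 9 rose in Tmem173iΔmye mice and 5 fell between colitic genotypes, with a median of -1.24, where the shares of all genes tested were 14.9%, 1.48% and 1.99%. The 5 were Csf3, the cytokine that drives neutrophil production, the chemokines Cxcl1 and Cxcl2, their receptor Cxcr2, and Selp, the P-selectin on which neutrophils roll. Cxcr2 stands on both lists.

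Markers of other cells moved with these results, and their part in them was not tested. Their counts stand against 14.9% of all genes tested that rose and 7.61% that fell with DSS in Tmem173fl/fl mice, 0.822% higher and 1.99% lower between colitic genotypes, and 15.6% (DSS in Tmem173iΔmye mice) and 20.2% (colitic genotypes) at an unadjusted p under 0.05. All 6 genes of blood red cells rose with DSS in Tmem173fl/fl mice (median 5.72), 0 were called in Tmem173iΔmye mice (0 also at an unadjusted p under 0.05) and all 6 fell between colitic genotypes (median -3.15). Their summed level was 195, 329 and 153 CPM in colitic Tmem173fl/fl and 29.01, 23.95 and 28.2 CPM in colitic Tmem173iΔmye mice, and 4.13 to 61.3 CPM without DSS, highest in untreated Tmem173iΔmye replicate 2, which also had the most Ngp, Mpo and Elane of the untreated libraries. Of 10 macrophage genes 7 rose with DSS in Tmem173fl/fl mice and 2, Mrc1 and Cd163, fell between colitic genotypes. In the latter comparison 5 of the 10 had an unadjusted p under 0.05, and the median of the 10 was -0.75. The sum of the macrophage genes ran from 889 to 1180 CPM in colitic Tmem173fl/fl and from 308 to 707 CPM in colitic Tmem173iΔmye mice, with no marker at 0. The 6 monocyte genes, Chil3 among them, had 0 called by edgeR between colitic genotypes and 5 at an unadjusted p under 0.05, of which Vcan, F13a1, Chil3 and Fn1 were lower and Ccr2, a defining marker, was higher at 0.56. Ly6c2, another defining marker, was at -0.24. Their sums were 1598 to 2055 and 670 to 1158 CPM, mostly of the matrix gene Fn1, at means of 1441 and 781 CPM. Of 8 colon epithelium genes 6 fell and 1 rose with DSS in Tmem173fl/fl mice and 1 rose between colitic genotypes, with sums of 11120 to 17510 and 14230 to 23850 CPM. Between colitic genotypes 6 of the 8 had an unadjusted p under 0.05, and the median of the 8 was 0.84. Eosinophil (6 tested), T cell (6) and B cell (4) genes had 0 called between colitic genotypes by edgeR, also at an unadjusted p under 0.05.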

How the data were processed

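Colon RNA of 12 mice was sequenced from polyA-selected libraries (NEBNext Ultra kit). The authors deposited whole-number counts per gene and FPKM per library on GRCm38 identifiers, and their processing notes name CASAVA 1.8, fastp, HISAT2 2.0.5, featureCounts 1.5.0-p3 and DESeq2 1.20.0. Use of strand was not given in the sources used here. The deposited FPKM equal counts divided by gene length and library total, times 1 constant per library. The authors' own comparison columns (group means, log2 fold changes, p-values and adjusted p-values) were not used.

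Groups came from the labels. Counts were tested with edgeR 4.0.16 in R 4.3.3 (glmQLFit and glmQLFTest, TMM) over 24102 of 54532 genes whose FPKM reached 0.1 in 3 or more libraries, with Benjamini-Hochberg adjustment over all of them. Each fit held the 2 groups compared, or all 4 for the interaction. The SE is the log2 fold change divided by the square root of F. A fold against a group at 0 was taken against a floor of 3 counts over it, with the other group's counts as seen. Intervals cover counting error only, and floors only that of the group at 0. The labels do not state separate litters or cages, so p-values measure the spread between these 3 mice per group. Depth of 13823237 to 18718915 counts limits genes below about 0.1 FPKM.

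All 30 genes of the list are accounted for, in groups by role, beside marker lists of other cells. Genes, lists and tests were chosen with earlier results of these data known. DESeq2 1.42.0, limma 3.58.1, other filters and scalings, the replicate number as a block and omission of each library were alternatives, and leaving out genes with no count and the libraries of the Xist pattern were added after seeing the data.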

Additional observations from a re-analysis of the deposited data

Results flagged for a closer look

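The response to DSS differed between genotypes by the interaction test over 12 libraries (edgeR) for 3 neutrophil genes. All 3 were lower, where 1.61% of all genes tested were lower and 0.934% higher. From 0 to 7 neutrophil genes were called when 1 library was left out. Shares of all genes are not given for those fits, so this range is not read as particular to these genes. Ptafr, the platelet-activating factor receptor, had an interaction log2 fold change of -1.7 (edgeR adjusted p 0.0397), Itgam of -1.31 (edgeR adjusted p 0.0385) and Asprv1 of -2.71 (edgeR adjusted p 0.0396). The log2 fold changes with DSS were 2.4, 2.89 and 3.52 in Tmem173fl/fl mice, all called, and 0.63, 1.52 and 0.74 in Tmem173iΔmye mice, where Itgam alone was called. With 3 libraries in a group no test for a single outlying value within a group was run.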

How the results depend on the processing

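In Tmem173fl/fl mice the count of neutrophil genes called for DSS was 25, where 22.5% of all genes were called. Over all alternatives it ran from 22 with limma at a pseudocount of 1 (11.9% of all genes) to 27 at the adjusted p alone (35.4%). It was 25 to 26 when each library was left out, where 19.8% to 23.1% of all genes were called. In Tmem173iΔmye mice it was 11, with 2 under limma at a pseudocount of 0.1 or of 1 (0.233% and 0.42% of all genes called, against 2.08%) and from 2 to 16 when each library was left out. Between colitic genotypes it was 9, with 14 without a filter on low values, 14 with DESeq2, 1 with limma at a pseudocount of 0.1, 6 with limma at a pseudocount of 1 or with DESeq2 size factors in edgeR, and from 0 to 9 when each library was left out. The share of all genes called was 2.81%, and in these alternatives 4%, 6.72%, 0.437%, 1.52% and 2.64%. For the interaction the count was 3, where 1.61% of all genes were lower and 0.934% higher. It was 9 without a filter, 7 with DESeq2, 1 and 11 with limma at pseudocounts of 0.1 and 1, and from 0 to 7 when each library was left out. Shares of all genes are not given for these other interaction fits, so their counts are not read as a change particular to these genes. Between untreated genotypes the count was 0 in every fit run. Without the 3 libraries of the Xist pattern, an alternative chosen after seeing the data, the counts were 25, 13, 0 and 9, and 1 for the interaction. Outside the interaction, the shares of all genes called were 20.2%, 2.59%, 0% and 2.11%, against 22.5%, 2.08%, 0% and 2.81% with all libraries. With genes of no count left out, also chosen after seeing the data, 10 were called between colitic genotypes, where 2.83% of all genes were. The causes were not tested. No neutrophil gene followed singly through the comparison of colitic genotypes, 9 called ones among them, changed sign in an alternative, and the other comparisons were followed by their counts alone. Replicate numbers did not pair the libraries, as deviations of same-numbered libraries correlated from -0.08 to 0.11. With the number as a replicate block the counts were 25, 16, 0 and 11, and 1 for the interaction. Outside the interaction, the block called 20.5%, 5.68%, 0.39% and 3.52% of all genes, against 22.5%, 2.08%, 0% and 2.81% without it. Depth limits Mpo, Elane, Ctsg, Camp, Prok2 and Trem3, which rest on few counts.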
